A study of Homo sapiens with 20 samples.

Results

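The regions described here were the HIF1A peaks called in hypoxia in A549 and in no other line studied, away from gene starts. HIF1A binding had been mapped by ChIP-seq, in which DNA bound by the protein is pulled down with an antibody and sequenced, in the colon carcinoma lines HCT116 and RKO and the lung carcinoma lines A549 and H460. The lines were grown in normoxia or exposed to hypoxia (1% O2) for 24 h, and every line had 2 ChIP replicates in either condition and 1 input library, made from genomic DNA without the antibody. The authors had merged both replicates of a group before calling peaks, so each line and condition is represented by 1 peak list, and no spread between replicates is given. Members were chosen by the peak calls in hypoxia and by position. A peak of the A549 hypoxia list was a member where no peak of the other 3 hypoxia lists belonged to its region (overlaps of at least 1 bp) and where its centre was more than 2500 bp from the start of every protein-coding or lncRNA gene. This left 3369 of 5408 A549 hypoxia peaks, and of 22452 peaks over the 4 hypoxia lists. Another 924 peaks were found in A549 alone but lay within 2500 bp of a gene start, and 473 distal A549 peaks were shared with another line. A peak was called where the tags exceeded the input by a fold set for each line (7 in HCT116, 6 in RKO, 13 in A549, 14 in H460), so a missing call in another line is not a missing signal.

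HIF1A is the oxygen-regulated subunit of the HIF1 heterodimer. In the presence of oxygen it is hydroxylated by prolyl hydroxylases, bound by the VHL ubiquitin ligase and degraded, and in hypoxia it accumulates, pairs with ARNT and binds hypoxia response elements (HREs) whose core reads ACGTG or GCGTG. HIF1 binds both promoters and distal enhancers. Enhancers are often opened by other factors, among them AP-1, the dimers of the FOS and JUN families, which are induced by growth signals and stress. Sites of AP-1 were matched here as TGANTCA.

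The strongest members show what such a site looks like. In the 4 sequences that follow, the whole 141 bp peak is printed from the plus strand of GRCh37 for 4 of the 6 strongest members with an HRE core within 100 bp of the peak centre, with each core on either strand in capitals.
chr17:74868825-74868965: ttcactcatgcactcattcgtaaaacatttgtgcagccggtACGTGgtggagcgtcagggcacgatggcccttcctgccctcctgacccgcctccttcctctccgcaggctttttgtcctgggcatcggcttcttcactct
chr2:20379461-20379601: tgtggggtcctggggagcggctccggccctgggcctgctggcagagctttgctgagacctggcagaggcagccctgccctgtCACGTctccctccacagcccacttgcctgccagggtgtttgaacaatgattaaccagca
chr5:67692445-67692585: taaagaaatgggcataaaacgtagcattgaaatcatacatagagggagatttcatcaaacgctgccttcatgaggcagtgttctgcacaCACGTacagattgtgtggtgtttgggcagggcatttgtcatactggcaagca
chr17:2853158-2853298: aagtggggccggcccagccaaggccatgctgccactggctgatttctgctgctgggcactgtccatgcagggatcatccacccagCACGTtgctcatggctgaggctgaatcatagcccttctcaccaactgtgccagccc

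The normalized tag count, the tags in a peak per 10 M tags of the library (1 M is 1000000), was 50.2 in the peak over a coding exon of MGAT5B, a glycosyltransferase gene, 4409 bp into the gene. The intergenic peak 45663 bp downstream of the start of SDC1, which encodes the proteoglycan syndecan-1, had 46.0. The intergenic chromosome 5 peak had 43.4 and its nearest coding gene start was that of PIK3R1, a regulatory subunit of phosphatidylinositol 3-kinase, 180947 bp away. The chromosome 17 peak in an intron of RAP1GAP2, a gene for a GTPase-activating protein of Rap1, had 35.9. Each of these 4 held ACGTG on one strand or the other.

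Some members resembled one another in sequence. Over all members, 72 (2.14%, Wilson 95% interval 1.70 to 2.68) shared at least 40 words of 12 bases with another member in the 200 bp at the centre, in 21 groups, and 8.18% did so among windows of the same length 2000 bp away. Reads that align equally well to several places were removed by the mapping quality filter, which can hide signal at the most similar copies.

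Of the 2149 members without an HRE core, 335 (15.6%) had an AP-1 site, and the sequences that follow come from these. The 200 bp at the centre, which contain the whole peak, are printed for 3 of the 4 strongest members with TGANTCA and no core, with the AP-1 match in capitals.
chr2:30887774-30887973: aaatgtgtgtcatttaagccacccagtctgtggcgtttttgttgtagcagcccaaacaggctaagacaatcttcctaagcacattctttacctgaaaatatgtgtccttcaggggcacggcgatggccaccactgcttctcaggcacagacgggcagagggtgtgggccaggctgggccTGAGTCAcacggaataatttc
chr17:25680650-25680849: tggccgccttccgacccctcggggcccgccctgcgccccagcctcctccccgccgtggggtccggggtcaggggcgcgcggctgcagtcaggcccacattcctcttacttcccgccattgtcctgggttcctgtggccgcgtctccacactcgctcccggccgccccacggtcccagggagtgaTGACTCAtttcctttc
chr11:69469694-69469893: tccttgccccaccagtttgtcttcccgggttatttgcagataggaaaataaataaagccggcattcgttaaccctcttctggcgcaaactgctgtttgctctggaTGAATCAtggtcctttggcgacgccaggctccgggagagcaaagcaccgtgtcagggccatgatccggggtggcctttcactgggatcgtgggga

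These peaks had normalized tag counts of 18, 17.2 and 13.3. The first was intergenic, 155534 bp from the start of CAPN13, a calpain gene. The second was intergenic, 59648 bp from the start of WSB1, the nearest coding gene. In both the AP-1 match lay outside the 141 bp of the peak itself. The third was 13870 bp downstream of the start of CCND1, the cyclin D1 gene, in an intron of LTO1, and its match read TGAATCA.

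The distal A549-only peaks were mostly weak. Their normalized tag count had a median of 3.65, and it was 3.22 at the lower quartile, 4.29 at the upper quartile and 97.3 at the highest. In unscaled tags this was a median of 17, from 11 to 453, in a merged library of 46.6 M tags, and 66.7% of members were below a count of 4. These values led to the call and are given as a description. The distal A549 peaks shared with another line had a median of 12, and only 6 of the 100 strongest A549 hypoxia peaks were members, against 722 of the strongest 2000. No input tag was recorded at 1109 members (32.9%), where the files hold 0.5 in place of 0, and 473 members (14.04%) had a fold over input under 14, within 1 unit of the limit. The descriptions of the A549 and RKO input samples name each other's line, while the titles match the cell line field, and which input entered which list was not tested. Just inside the distance limit were members at 2511, 2513 and 2522 bp from a gene start, with normalized tag counts of 3.44, 3.22 and 4.94. Just outside it were A549-only peaks at 2491, 2493 and 2498 bp with 3.87, 4.29 and 4.08. A hypoxia peak of another line lay within 250 bp of 27 members (0.801%) and within 2500 bp of 137 (4.07%).

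An HRE core was found in the 200 bp at the centre of 1220 of 3369 members (36.2%, Wilson 95% interval 34.6 to 37.9), and in 19.5% of windows of the same length 2000 bp to either side. The difference was 16.7 percentage points (Newcombe 95% interval 14.8 to 18.6). Nearly all of it came from ACGTG, which was in 25.4% of centres and 8.83% of flanks, while GCGTG was in 15.7% and 12.1%. The control words ACGAG and GCGAG, of the same base composition, were in 15.9% of centres and 13.6% of flanks, a difference of 2.30 points (0.841 to 3.801). Mean GC content was 46.0% at the centre and 43.3% in the flanks. All intervals cover counting error only.

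The matches were narrower around the centre for the HRE than for AP-1. In bins of 20 bp the HRE core was most frequent in the bin 10 bp after the centre, where 8.34% of members had a match, against a median of 2.27% in bins beyond 300 bp. It stayed above 1.5 times that outer level from -60 to 80 bp. Taken alone and against their own outer levels, ACGTG did so from -100 to 100 bp and GCGTG from 0 to 40 bp. AP-1 reached at most 2.58% of members in a bin, against an outer median of 0.831%, and stayed above 1.5 times it from -140 to 180 bp. The control words did not form such a stretch.

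**Figure D1:**
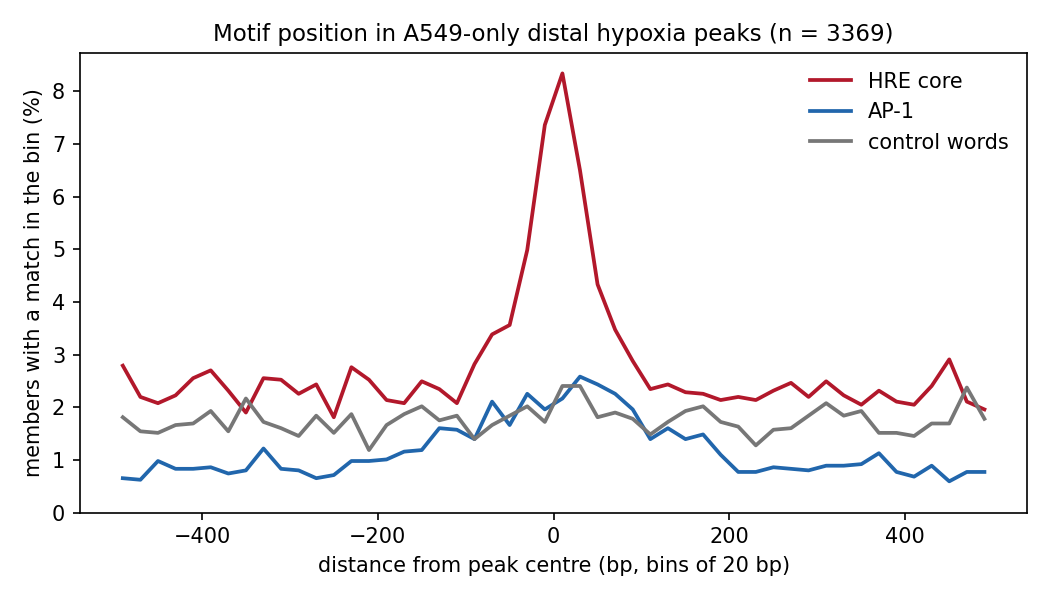
Share of the 3369 members (y axis, percent) with a match on either strand in each 20 bp bin, by distance from the peak centre (x axis, bp), for the HRE core, AP-1 and the control words. The HRE core peaks at 8.34% beside the centre, and AP-1 forms a lower and broader rise of at most 2.58%.

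The bases around ACGTG also differed between centre and flank. ACGTG was counted on both strands. Among 1106 such matches in the centres, the base just before the core was T in 31.3% and G in 26.9%, against 17.98% and 17.7% of 784 matches in the flanks. It was C, which completes the E-box CACGTG, in 25.9% of centre matches and 38.4% of flank matches. CACGTG reads the same on both strands, so each E-box entered once for each strand. Counted by E-box, the share of C would be lower and those of T and G higher, in centres and flanks alike. Even so, the E-box itself was in 4.13% of member centres and 2.12% of flanks (difference 2.00 points, 1.28 to 2.80).

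AP-1 was the second motif of these peaks. TGANTCA was in 624 members (18.5%, 17.2 to 19.9) and in 6.46% of flanks, a difference of 12.1 points (10.7 to 13.5). Ranked by the share at the centre minus the share in the flanks, TGACTCA was first of 8192 words of 7 bases (a word and its reverse complement counted as one), in 13.3% of centres and 3.40% of flanks. The next 5 words overlapped it and were led by GAGTCAC, in 6.23% of centres and 2.11% of flanks. Of the remaining 4 of the first 10, 3 held the HRE core. The strongest of these, CACGTAG, was in 3.44% of centres and 0.430% of flanks. The other, CTCTCTC, was in 7.90% of centres and 4.88% of flanks. TGAATCA, which TGANTCA also takes in, ranked 13 and was in 5.91% of centres and 3.09% of flanks. Smaller differences were found for the TEAD word GGAATG (15.4% against 10.9%, difference 4.57 points, 3.16 to 6.02), the RUNX word TGTGGT (2.97 points, 1.50 to 4.48) and the GC box GGGCGG (1.84 points, 0.952 to 2.79). The antioxidant response element TGACNNNGC, bound by NRF2, differed by 1.75 points (0.644 to 2.91), the C/EBP word TTGCNNAA by 1.62 (0.325 to 2.96), the FOXA word TGTTTAC by 0.846 (0.111 to 1.64) and the ETS word CCGGAA by 0.608 (0.0576 to 1.22). For the GATA word AGATAA the difference was 0.772 points (-0.615 to 2.203) and for the glucocorticoid receptor word ACANNNTGT -0.0445 points (-0.987 to 0.951). Words for these factors were matched as letters, and a match is not a bound site.

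Both motifs were more frequent in strong members, with the largest step between classes 4 and 5 of the 5. Members were split into 5 classes of equal size by normalized tag count. The HRE core was in 24.5%, 25.5%, 24.0% and 33.8% of classes 1 to 4 and in 73.3% (69.8 to 76.5) of class 5, the strongest, whose counts ran from 4.72 to 97.3. AP-1 was in 12.3% (10.05 to 15.0), 14.8%, 15.4% and 17.7% of classes 1 to 4 and in 32.4% (28.97 to 36.0) of the strongest, and the control words were in 13.2% of the weakest and 22.7% of the strongest. Of the 100 strongest members, 83 had the core and 76 had it as ACGTG, 31 had AP-1 and 14 had neither. Over all members, 1814 (53.8%) had neither word. In the A549-only peaks near gene starts AP-1 had no such rise, at 7.03% (4.15 to 11.7) in the weakest class and 8.70% (5.42 to 13.7) in the strongest.

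**Figure D2:**
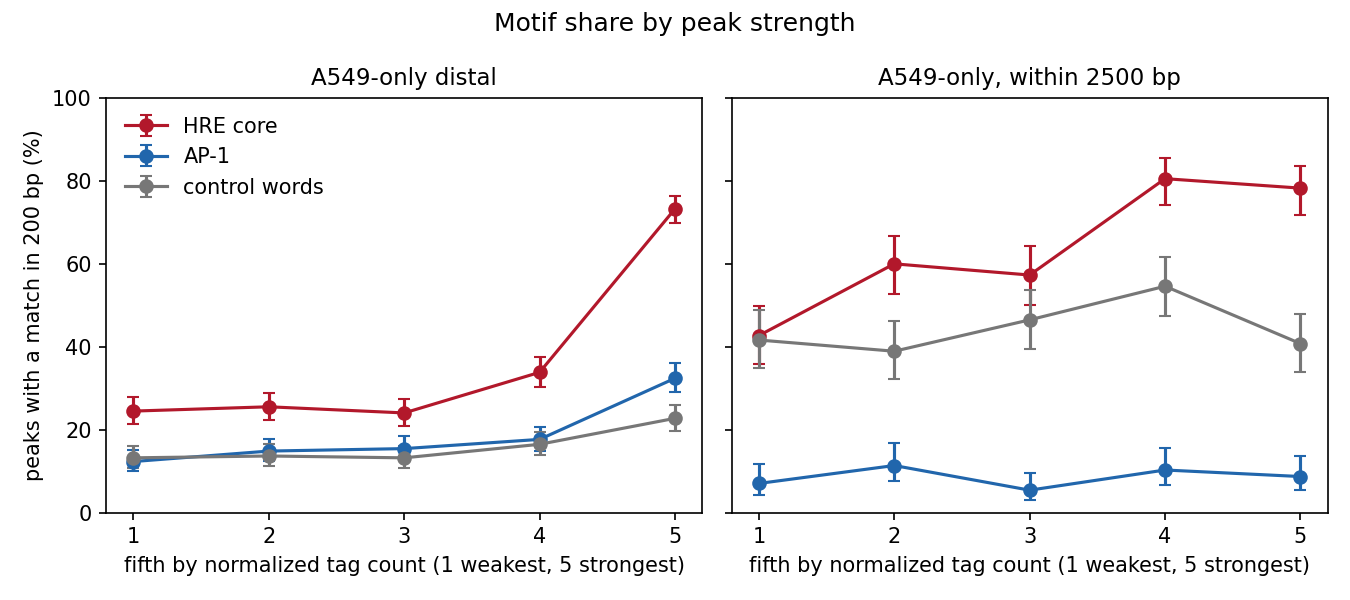
Share of peaks (y axis, percent) with the HRE core, AP-1 and the control words in 200 bp, in 5 classes of equal size by normalized tag count (x axis, 1 weakest to 5 strongest), for members (left) and for A549-only peaks within 2500 bp of a gene start (right); bars are Wilson 95% intervals. In members the HRE core rises from 24.5% to 73.3% and AP-1 from 12.3% to 32.4%, and near gene starts AP-1 stays between 5.41% and 11.4%.

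AP-1 was more frequent in members that had an HRE core. It was in 289 of 1220 members with the core (23.7%) and in 335 of 2149 without (15.6%), a difference of 8.10 points (5.30 to 10.97). Both words were more frequent in strong members, and the part of peak strength in this difference was not tested. Members with both words had a median normalized tag count of 5.37, those with the core alone 3.87, those with AP-1 alone 3.65 and those with neither 3.44. The same difference was 3.21 points (0.304 to 6.23) in the distal peaks found only in HCT116, 2.54 (0.824 to 4.47) in those of RKO and -1.63 (-5.82 to 2.42) in those of H460, and whether the lines differed in this was not tested.

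Compared with the other A549 peaks, the members had the core less often. It was in 63.7% of A549-only peaks near gene starts, and the members minus these gave -27.5 points (-31.0 to -24.0). It was in 90.1% of shared distal A549 peaks, and the members minus these gave -53.9 points (-56.7 to -50.4). AP-1 went the other way between distal and near: 8.55% of A549-only peaks near gene starts had it, and the members exceeded them by 9.97 points (7.62 to 12.1). Of the shared distal A549 peaks 30.4% had it, and the members minus these gave -11.9 points (-16.4 to -7.72). The shared distal peaks had a median normalized tag count of 12 and the members 3.65. The part of peak strength in the differences between these sets was not tested. The same comparison of single-line distal with single-line near peaks gave a lower share of the HRE core at the distal peaks in all 4 lines, with a mean of 39.6% against 68.4%, a difference of -28.8 points (SD 8.16, n = 4 lines). The two-sided exact permutation test that flips signs over lines gave p = 0.125, which is as low as 4 lines allow. The control words were also less frequent at distal peaks. They were in 44.5% of A549-only peaks near gene starts, and the members minus these gave -28.6 points (-32.1 to -25.2). In HCT116 they were in 25.1% of distal and 60.7% of near single-line peaks, in RKO 11.2% and 41.8%, in H460 21.8% and 56.1%. GC content at the centre was 59.5% in the A549-only peaks near gene starts and 46.0% in the members, and its part in these differences was not tested.

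Among the distal peaks found in 1 line only, A549 lay between the other lines for the HRE core. H460 had the highest share (61.4%) and RKO the lowest (17.5%, with 17.4% in its flanks), while HCT116 had 43.1% beside the 36.2% of the members. The order of HCT116 and A549 depended on the word. ACGTG was in 25.4% of members and 22.1% of HCT116-only distal peaks (difference 3.28 points, 0.819 to 5.68), and GCGTG in 15.7% and 27.2%. The control words were in 15.9% and 25.1%. Against the mean of the other lines, 40.7% (SD 22.04, n = 3), the difference of A549 was -4.46 points (exact permutation test over the 4 lines, two-sided, p = 1, smallest possible 0.25), and without the H460 list it was 7.09 points. For AP-1 the order was H460 at 19.2%, A549 at 18.5%, HCT116 at 10.6% and RKO at 8.04%. The members minus the H460 peaks gave -0.653 points (-3.08 to 1.69), and the members stood 7.88 points (5.89 to 9.79) above HCT116 and 10.5 points (9.04 to 11.96) above RKO, with intervals of counting error. Over lines, A549 was 5.90 points above the mean of the other 3, 12.6% (SD 5.82, n = 3, exact permutation test, two-sided, p = 0.75). This difference was 9.27 points without the H460 list, 3.72 without the RKO list and 2.77 in a window of 100 bp. The lists were called at different folds over input, and the RKO list at the lowest. The FOXA word was in 3.799% of members, 6.39% of H460-only, 3.23% of RKO-only and 1.58% of HCT116-only distal peaks.

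**Figure D3:**
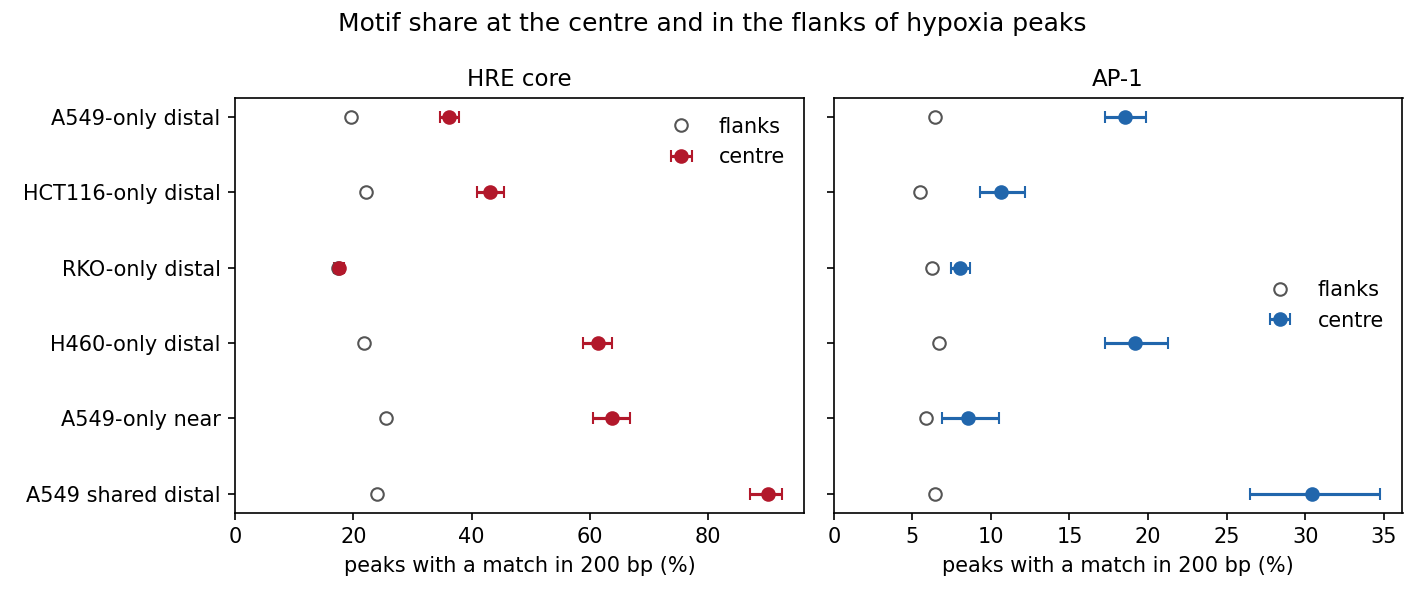
Share of peaks (x axis, percent) with the HRE core (left) and AP-1 (right) in the 200 bp at the centre (filled, with Wilson 95% intervals) and in flanks of equal length 2000 bp away (open), for members, the distal peaks found in each other line only, and the near and shared distal A549 peaks. Members had the HRE core in 36.2% and AP-1 in 18.5%, and in RKO-only distal peaks the HRE core was at the level of the flanks.

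Members lay in introns and between genes. An intron held the centre of 1979 members (58.7%, 57.1 to 60.4), 1146 (34.0%) were intergenic, and coding exons, UTRs and noncoding exons held 1.84%, 2.67% and 2.73%. The intron share was 56.4% (51.9 to 60.8) in shared distal A549 peaks and between 54.8% and 58.0% in the distal peaks found only in another line. The median distance to a gene start was 26056 bp, with 295 members within 5000 bp, 2067 (61.4%) between 5000 and 50000 bp and 1007 (29.9%) beyond 50000 bp. The start of some annotated transcript, in place of the gene start, was within 2500 bp of 435 members (12.9%). The core was in 40.7% (35.2 to 46.4), 38.6% (36.5 to 40.7) and 30.1% (27.3 to 33.0) of the 3 distance classes, from near to far, and in 24.6%, 21.0% and 14.9% of their flanks. AP-1 was in 12.5% (9.24 to 16.8), 18.4% (16.8 to 20.1) and 20.6% (18.2 to 23.2). The median tag count was 3.65 in each class.

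In normoxia few members were called. A normoxia peak of A549 overlapped 55 members (1.63%, 1.26 to 2.12), one of HCT116 overlapped 2, one of RKO 1 and one of H460 none of the 3369 (upper limit 0.114%). Members had been chosen to have no hypoxia peak of the other lines, so the overlaps with the normoxia lists of those lines are a description. Over all A549 hypoxia peaks, 176 of 5408 were called in A549 normoxia. The A549 share was 1.62% for A549-only peaks near gene starts, 9.19% for shared near and 9.94% for shared distal A549 peaks. The members minus the shared distal peaks gave -8.30 points (-11.4 to -5.87). The shared distal peaks had a median normalized tag count of 12 and the members 3.65, and the part of peak strength was not tested. In normoxia of their own line, 1.20% of H460-only, 0.679% of HCT116-only and 0.483% of RKO-only distal peaks were called. Of the 55, 49 were in the strongest of the 5 classes. The HRE core was in 58.2% (45.0 to 70.3) of the 55, against 35.8% (34.2 to 37.5) of the other members. In the strongest class as a whole it was in 73.3% (69.8 to 76.5), and the part of peak strength was not tested. The median normalized tag count of the 55 was 10.5 in hypoxia and 4.85 in normoxia.

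Tags at these 55 were compared between the hypoxia and normoxia libraries by an exact conditional binomial test for each peak, which compares 2 merged libraries and not the conditions, adjusted over the 176 A549 peaks called in both (Benjamini-Hochberg). The count was higher in hypoxia at 48 of 55, and 30 of these passed an adjusted p of 0.05, where 73.3% of the 176 passed in that direction. None of the 7 that were lower passed, where 1.14% of the 176 did. The median log2 ratio was 0.79 (quartiles 0.32 and 1.44) for members and 1.50 for the other 121 peaks. A call in hypoxia was part of the choice of members, so these counts are a description.

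Among the 5 members with the largest ratio were an intronic peak and an intergenic one. The intronic peak, in NAV1 at chr1:201717568-201717708, with ACGTG, had 3.88 in normoxia and 15.9 in hypoxia (log2 ratio 2.03). The intergenic one, 97342 bp from the start of LINC02947, had 3.39 and 13.7 (log2 ratio 2.02). At the low end were a peak at chrY:58856009-58856149 with 12.1 in normoxia and 7.73 in hypoxia (log2 ratio -0.65, exact binomial test, adjusted p = 0.0533), which stood 2517.19-fold over its local region, and one at chr21:11186542-11186682 with 15.3 and 10.3 (log2 ratio -0.57, adjusted p = 0.0597). The other 3 were in introns of RARS2, of LINC02343 and of ELMO1, with log2 ratios of -0.36, -0.35 and -0.25, and none of the 3 passed the test.

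**Figure D4:**
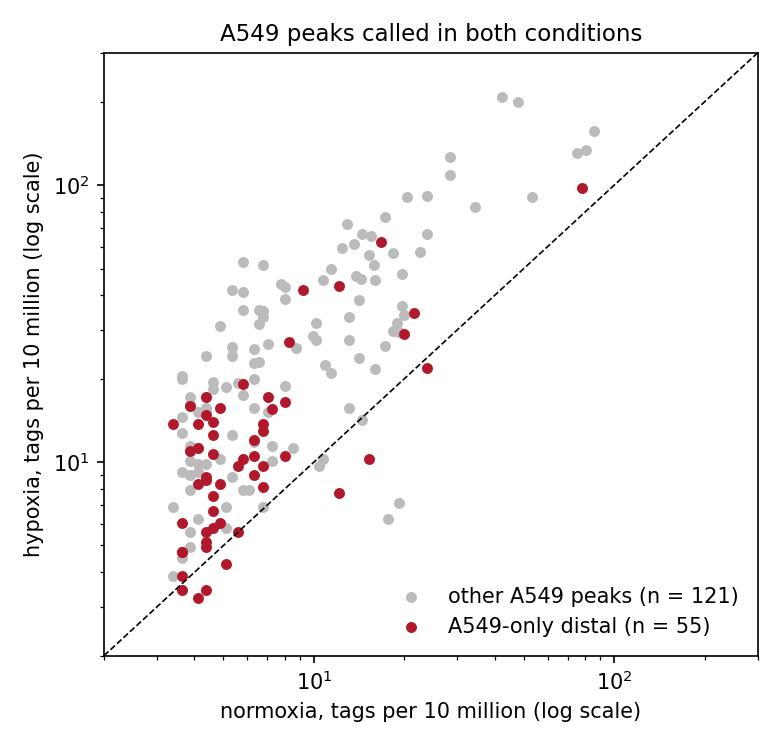
Normalized tag count in A549 hypoxia (y axis) against A549 normoxia (x axis), both in tags per 10 M on a log scale, for the 55 members and the other 121 A549 peaks called in both conditions; the dashed line marks equal counts. Of the members, 48 lie above the line and 7 below it.

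The strongest member of all had no HRE core. It lay at chr17:57921529-57921669, intergenic and 48707 bp from the start of TUBD1, the delta-tubulin gene, with a normalized tag count of 97.3. In A549 normoxia it had 78.3 (log2 ratio 0.31), and in hypoxia it stood 5.33-fold over its local region. Another A549 peak, which was no member, had its centre 498 bp away with 134.4, and a peak of another line had its centre 493 bp away. Its focus ratio, the share of tags placed as a single focused peak would have them, was 0.568, where the median of members was 0.774. Another 3 of the 5 strongest without the core were as follows. A peak 2524 bp from the start of ID3, which encodes an inhibitor of basic helix-loop-helix factors, had 29.2 and a focus ratio of 0.595. A peak 28384 bp from the start of the tensin gene TNS4 had 29.0 and 0.551, and a count of 19.9 in normoxia (log2 ratio 0.54). The third, in an intron of ACTR3C and 10441 bp from the start of LRRC61, had 28.8 and 0.852. None of the 5 strongest had TGANTCA either. Over all members, 66 (1.959%) had another A549 peak within 1000 bp, and their median focus ratio was 0.680 against 0.778 for the rest.

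The 10 strongest members also included one in the UTR of MED29, a Mediator subunit gene, at chr19:39889422-39889562 (34.8, with both HRE words and AP-1), and one 27188 bp downstream of the start of CD70, the ligand of CD27, at chr19:6576856-6576996 (34.4, with ACGTG). In all, 8 of the 10 held ACGTG and 2 held AP-1.

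Members were mostly single along the genome. Joining centres within 12.5 kb gave 3243 loci, of which 3124 held 1 member, 112 held 2 and 7 held 3. Of the 3369 members, 7.27% (6.44 to 8.20) shared a locus, against 12.6% of H460-only, 10.8% of RKO-only and 5.26% of HCT116-only distal peaks, lists that also differ in their number of peaks. An A549 peak that was no member lay within 12.5 kb of 123 members (3.65%, 3.07 to 4.34), and these had the HRE core more often (52.8%, 44.1 to 61.4) than the rest (35.6%, 34.0 to 37.2).

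Among the loci of 3, the one with the highest summed tag count was at chr20:43357840-43359341, between KCNK15, a potassium channel gene, and CCN5, which encodes a secreted matricellular protein. Its 3 members, within 1.502 kb, had 21.3, 14.8 and 9.45, and 2 had the core. At the histone genes H4C8 and H2BC10, chr6:26276911-26296428, the counts were 17.6, 15.7 and 3.65. At TXN2, the gene of mitochondrial thioredoxin, chr22:36858226-36864211, they were 10.3, 6.01 and 5.15. All 3 members at ADAMTS10, a gene of a secreted metalloprotease-like protein, chr19:8656718-8657635, had the core, with 6.44, 5.80 and 3.65. The members at RHOF and TMEM120B, chr12:122212658-122230236, had 4.51, 3.87 and 3.65, and 2 of them had AP-1.

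A gene was credited with a member where its start was the nearest within 50000 bp. This held for 1117 of 20176 protein-coding genes (5.54%), and 5 of them had 3 or more members. DHRS3, which encodes a retinal reductase, had 4, of at most 3.87. SDC1, FBXL18 and TRIO were among those with 3.

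The lists of genes are described by their counts beside that share. Of 56 classical hypoxia response genes, 7 had a member (12.5%, Wilson 95% interval 6.19 to 23.6). They included the stress-response gene NDRG1 (10.1), ANGPTL4, an inhibitor of lipoprotein lipase (2 members, the stronger 6.66), the growth factor binding protein gene IGFBP3 (4.29), PDK3, a pyruvate dehydrogenase kinase (4.08), and the glycolytic PGAM1 (3.22). None of these 5 peaks, with the stronger taken at ANGPTL4, held ACGTG, and those at NDRG1 and ANGPTL4 held GCGTG. Of 42 matrix remodelling genes, 8 had one (19.0%, 9.98 to 33.3). They included SPARC, a matricellular protein gene (11.4), the collagen genes COL4A1 (7.73) and COL5A1 (7.30), the lysyl hydroxylase gene PLOD2 (7.30) and TGFBI (7.09). The peaks at SPARC and PLOD2 held both ACGTG and AP-1.

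Of 39 NRF2 antioxidant targets, 5 had a member (12.8%, 5.60 to 26.7). These were the ferritin heavy chain gene FTH1 (21.9), the transporter genes ABCC3 (7.52) and ABCC1 (4.29), the glutathione reductase gene GSR (5.15) and the transketolase gene TKT (2 members, the stronger 4.08). The FTH1 peak lay over a coding exon where the annotated genes BEST1 and FTH1 overlap. It had a fold over input of 13.16, close to the limit of 13, and a count of 23.8 in normoxia. Of 24 AP-1 and related bZIP genes, 3 had one (12.5%, 4.34 to 31.0), MAFK (12.2), FOS (5.37) and JUND (4.08). Of 33 airway and alveolar genes 2 had one (6.06%, 1.68 to 19.6), the pioneer factor gene FOXA2 and the E-cadherin gene CDH1, both with 3.44. Of 24 colon epithelial genes none had one (upper limit 13.8%).

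The density of members differed between chromosomes. Over chromosomes 1 to 22 and X it was 11.9 members per 10 Mb of known sequence. It was 27.0 on chromosome 17, 21.8 on chromosome 20 and 19.5 on chromosome 19, and it was lowest on chromosomes 21 (4.27), X (4.37), 13 (4.92) and 4 (5.28). On chromosome 17 the H460-only, HCT116-only and RKO-only distal peaks had 10.9, 13.6 and 17.9 per 10 Mb, and on chromosome 20 they had 6.39, 2.35 and 55.6. The share of members with the HRE core was 33.8% on chromosomes 17 and 20 and 56.0% on chromosome 19. Members on chromosome 17 had 1.15 input tags on average, those of all chromosomes 0.836, and the part of the input level in the density was not tested.

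**Figure D5:**
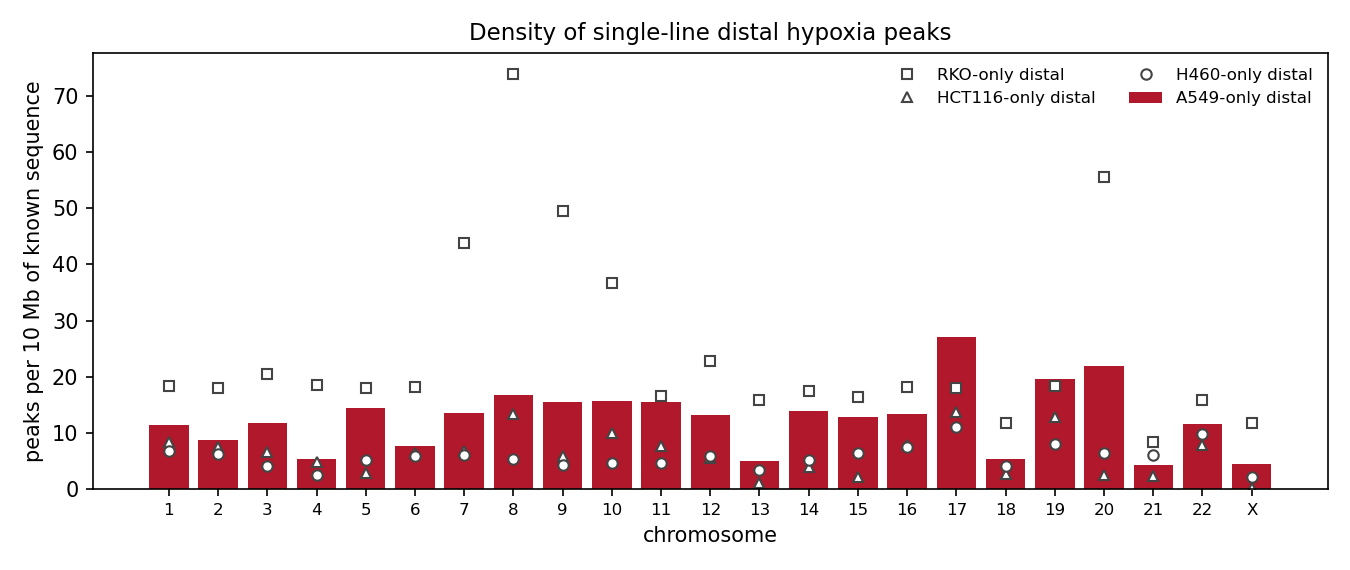
Distal hypoxia peaks found in 1 line only per 10 Mb of known sequence (y axis) on each chromosome (x axis): bars for A549, the members, and open symbols for the other lines. Members are densest on chromosome 17 at 27.0 per 10 Mb, and RKO-only peaks have 74.0 on chromosome 8 and 55.6 on chromosome 20.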

How the data were processed

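Groups were taken from the sample titles. Per the submitters' processing notes, reads were aligned to GRCh37 (hg19) with Bowtie2 2.2.9 and processed with SAMtools 1.3.1, Picard 1.129 and HOMER 4.3. The authors removed reads of low mapping quality, marked duplicates, merged both replicates of a group and called peaks of fixed width against the input of the line with HOMER. Per the file headers a fold over the local region of 3 and a false discovery rate of 0.001 were required. The authors deposited a normalized tag count for each peak, a signal per 10 M tags (1 M is 1000000), with ChIP and input tags as scaled signal. The deposited fold over input and over the local region are ratios, and the deposited focus ratio is a fraction from 0 to 1. A549 had 46.6 M tags in hypoxia and 41.2 M in normoxia, and depth sets the weakest peak that could be called.

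Unscaled tags were computed here from the normalized tag count and the header total, and their sums equalled the headers' tags in peaks. Regions joined peaks overlapping by at least 1 bp. Gene starts were those of GENCODE 44 mapped to GRCh37, whose chromosomes contain every peak. Motifs were matched as letters on both strands in 200 bp at the peak centre and 2000 bp to either side. Shares carry Wilson and differences Newcombe 95% intervals. The line was the unit of replication for permutation tests. The binomial test and the motif search were tested on simulated data. Python 3.11.15, numpy 2.4.6, pandas 2.3.3 and SciPy 1.17.1 were used.

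Named peaks were the 10 strongest, the 5 strongest without the HRE core, the 5 loci with most members, the 5 with the largest rise and fall among those called in both conditions, and up to 6 genes per list, and some of these are not reported here. Members, gene lists and motifs were chosen with earlier results of these data known. The alternatives were other fold limits, distances, gene starts, overlaps, motif windows and lists, and peaks without an input tag left out. Coverage of single replicates was not used here.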

Additional observations from a re-analysis of the deposited data

Results flagged for a closer look

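Over the 4 lines, 20 measures of the distal peaks found in 1 line only were compared for a line far from the rest, and 1 stood apart. The share of these peaks without an input tag was 58.1% in H460, against 32.99% in HCT116, 32.9% in A549 and 28.5% in RKO. Chance marks about 5% of such comparisons. No measure set A549 apart in this way.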

How the results depend on the processing

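No paired analysis was possible because the peak lists used here were called on merged replicates. Of 105 alternative values, 92 were counted as unchanged, 12 as moved and 1 as reversed. The differences tested over lines had no limits, and their permutation p cannot fall below 0.125 with at most 4 lines. For these, a count as unchanged means only that the sign was kept. It includes A549 differences in HRE share of -16.0 points without the RKO list (main value -4.46) and in AP-1 share of 2.77 points in a 100 bp window (main value 5.90). A local fold of at least 6 left 1798 members, with the HRE core in 44.2%, AP-1 in 23.2%, a normoxia call in 2.39% and an intron in 57.0%. The HRE share was 38.7% with a fold over input of at least 14, 34.0% with every transcript start, and 41.5% (AP-1 21.0%) without peaks lacking an input tag. In a 100 bp window it was 26.2% against 10.3% of flanks, and AP-1 9.82% against 3.19%. Leaving out another line's list in turn gave 37.0% to 38.7%, and a difference of A549 from the mean of the remaining lines of -16.0 to 7.09 points, the latter without H460, the line with the highest share. Chosen after seeing the data, peak width in the expected ratio gave 32 members called higher in hypoxia in place of 30, and 1 peak per locus left 3243 members. The median member had 17 tags, so counts under 20 tags limit the precision of most members and not only of the weakest.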
